A study of Mus musculus with 6 samples.

Results

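The core circadian clock loop is described here through 10 genes, Arntl, Clock, Npas2, Per1, Per2, Per3, Cry1, Cry2, Nr1d1 and Nr1d2, which were taken by name from a table of 55995 features. All 10 were found. The 9 whose average over the libraries reached 1 TPM entered the test, and Npas2 did not. TPM is a transcript level scaled for transcript length and library total, so levels of different genes can be compared within a library. RNA came from the gastrocnemius, the large fast-twitch muscle of the calf, of NSG mice (NOD/SCID/IL2Rγ-null), which lack mature lymphocytes. All mice bore a subcutaneous left-flank tumour of MDA-MB-231 cells, a line of human breast cancer labelled WT, and were kept under 12 h of light and 12 h of dark with free access to food. In the radiotherapy group (3 libraries) the tumour received 10 Gy in 1 dose, as 6 MV X-rays at a rate of 6 Gy per minute, at a size of about 800 mm3, and the gastrocnemius of the other side was collected after 3 days. The control group (3 libraries) was not irradiated. The labels give neither the age of the mice nor the hour at which any muscle was taken, so hour of collection and treatment cannot be told apart. Nor do they state whether each library is a different mouse, so the spread that p-values measure is that of these samples and may be technical.

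The clock is a feedback loop of transcription. BMAL1, the protein of Arntl, pairs with CLOCK or its relative NPAS2, binds E-box sequences and activates the Per and Cry genes and the nuclear receptor genes Nr1d1 and Nr1d2. PER and CRY proteins then repress the BMAL1 complex, and the REV-ERB receptors made from Nr1d1 and Nr1d2 repress Arntl through RORE sequences, at which ROR receptors activate. DBP, TEF and HLF activate and NFIL3 represses genes through D-box sequences, Per3 among them. In mouse tissues Arntl RNA peaks at roughly the opposite time of day to Dbp, Per3 and Nr1d1 RNA, and the muscle clock is known for timing genes of fuel use.

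The promoter stretches of 5 members are shown because they hold letters that match sequences through which these arms are known to act, and a match describes the letters, not a bound site. They come from RefSeq windows on GRCm38.p6, from 250 bases before a start to 50 bases after it, of which 9 members have 13 and Per2 has no entry. The positions were not used with the expression table, for which the submitters' processing notes name mm9. Both strands were searched for the E-box CACGTG, a variant E-box CACGTT, the D-box TTATGTAA, the RORE core TAGGTCA and the cyclic AMP response element TGACGTCA. Capitals mark the matches, a match on the other strand appears as its reverse complement, and no 2 of the matches shown overlap.
Arntl, RORE, chr7:113207529-113207558, plus strand: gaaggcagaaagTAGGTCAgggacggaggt
Per3, D-box pair, chr4:151044806-151044880, minus strand: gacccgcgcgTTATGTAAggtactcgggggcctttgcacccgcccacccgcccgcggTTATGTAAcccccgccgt
Per1, E-box, chr11:69098763-69098808, plus strand: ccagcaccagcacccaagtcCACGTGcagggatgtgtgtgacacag
Cry1, variant E-box and E-box, chr10:85185099-85185143, minus strand: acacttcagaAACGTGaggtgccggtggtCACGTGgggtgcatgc
Nr1d1, variant E-box, chr11:98775384-98775425, minus strand: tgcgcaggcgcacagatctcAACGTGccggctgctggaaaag
The Arntl match begins at base 31 after a start, inside an exon that GENCODE M21 annotates as untranslated. The Per1 stretch lies in an intron of a longer Per1 transcript, and the Per3, Cry1 and Nr1d1 stretches lie upstream of every annotated transcript of their gene. Of 32851 promoter windows of the same length, 2.61% hold the RORE core, 0.938% the D-box, 7.15% the E-box, 4.68% the variant E-box and 1.79% the cyclic AMP response element. Cry2 holds a variant E-box, the cyclic AMP response element was matched in 0 members' windows, and the windows of Clock, Npas2 and Nr1d2 hold none of the 5 sequences, which says only that these letters are not in these windows.

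Several measures of the whole table touch the clock values. Defining markers of fast muscle were abundant in every library, with Ckm, muscle creatine kinase, at 19323 to 25645 TPM, and Myh4, a fast myosin, at 4063 to 6545 TPM. The 12 muscle fibre markers summed to 111606 to 123550 TPM in control, to 161476 and 167721 TPM in radiotherapy replicates 1 and 2 and to 93870 TPM in replicate 3. Radiotherapy replicate 3 stood apart from the others of its group. All 6 neutrophil markers were highest in it, at a summed 2942 TPM against 10.9 and 18.4 TPM in replicates 1 and 2 and 73.2 to 182.9 TPM in control, and none of them was at 0 in any library. Summed markers of satellite cells were at 14.1 to 23.3 TPM in the control group and 6.69 to 17.5 TPM in the radiotherapy group, those of fibroblasts at 114.6 to 181.6 and 101.9 to 165.1 TPM, of adipocytes at 139.9 to 639.2 and 228.3 to 376.5 TPM, and of erythroid cells at 312.0 to 1395 and 846.5 to 1307 TPM. The satellite cell sum was mostly Cdh15 (13.2 to 22.1 and 6.01 to 16.5 TPM), the only 1 of its 5 markers that was tested. Of the fibroblast markers 3 of 7 were higher in every radiotherapy library than in every control library, namely the collagen genes Col1a1 (3.00 to 14.0 against 1.35 to 2.05 TPM) and Col3a1 (8.27 to 19.9 against 3.39 to 4.18 TPM) and Pi16 (6.58 to 9.69 against 2.70 to 5.06 TPM). Dcn, which made up most of the fibroblast sum, leaned lower, at 76.3 to 102.3 against 97.4 to 154.6 TPM. Of the erythroid markers 2 of 5 were higher in every radiotherapy library, Hba-a1 (404.6 to 510.9 against 76.1 to 319.9 TPM) and Alas2 (4.06 to 4.47 against 0.76 to 2.56 TPM). Hba-a2 leaned lower with a wide overlap, at 97.25 to 310.4 against 121.0 to 508.0 TPM. Mural cell markers summed to 67.6 to 88.7 and 92.5 to 125.4 TPM, a pair of ranges that did not overlap. Of the 6 mural markers only 1, Acta2, was itself higher in every radiotherapy library (45.3 to 68.7 against 23.3 to 44.0 TPM). Kcnj8, another, leaned lower, at 2.68 to 3.47 against 3.45 to 4.15 TPM. Lower in every radiotherapy library were 1 of 5 satellite cell markers, Myf5 (0.09 to 0.14 against 0.31 to 0.37 TPM), and 1 of 6 endothelial markers, Tek (1.88 to 2.57 against 3.55 to 4.48 TPM). Over all tested features, 1.73% were higher in every radiotherapy library than in every control library and 19.3% were lower. In radiotherapy replicates 1 to 3, tendon markers summed to 54.8, 41.4 and 8.80 TPM (8.23 to 18.7 in control), endothelial markers to 46.9, 44.6 and 145.0 TPM (66.0 to 83.0), macrophage markers to 26.9, 38.0 and 156.8 TPM (17.8 to 56.4) and Schwann cell markers to 66.6, 89.5 and 21.1 TPM (14.8 to 71.5). Only 2 of 6 endothelial markers were highest in replicate 3, Cldn5 (59.4 TPM) and Cdh5 (37.95 TPM), and 1, Tek, was lowest. Of the macrophage markers 2 of 6 were highest in replicate 3, and Cd68 alone made up 120.9 TPM of their sum. The median absolute log2 difference over all tested features was 0.18 between replicates 1 and 2 and 0.71 and 0.77 between these and replicate 3. Fewer cells of a type and less RNA per cell cannot be told apart in such bulk samples, and the part of these differences in the clock values was not tested. Changes are given as radiotherapy minus control on the scale of log2(TPM + 1), which understates the change of low genes. Their median over all 11938 tested features was -0.36, and 78.5% of them lay below 0.

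Among the clock genes Arntl differed most between the groups. Its mean was 6.95-fold lower after radiotherapy, at 2.29 ± 2.38 against 15.9 ± 7.53 TPM (SD, n = 3 each). The means of Cry1, Cry2 and Clock were 1.97- to 2.15-fold lower, while Nr1d1 had nearly the same mean in both groups and Per3 was higher in 2 of 3 radiotherapy libraries than in every control library. Of the 9 members tested with limma, 0 passed an adjusted p of 0.05, beside 0.0586% of all tested features, and 2 (Arntl and Cry1) had an unadjusted p under 0.05, both as lower, beside 13.3% of all tested features as lower and 1.18% as higher. In Arntl, Clock, Per1 and Cry1, 4 of 9, each radiotherapy library lay below every control library, beside 19.3% of all tested features, and the reverse held for 0, beside 1.73%. With 3 libraries against 3, the smallest p of an exact two-sided permutation test is 0.1. The median log2 change of the 9 members was -0.54, and 7 of them lay below 0. Without control replicate 2 the groups did not overlap for 7 members, all as lower, beside 29.3% of all tested features as lower and 3.17% as higher. After quantile normalization they did not overlap for 1 of 9, Arntl, as lower, beside 11% as lower and 7.85% as higher. Without radiotherapy replicate 3, 4 of the 9 passed as lower in limma's test, namely Arntl, Clock, Cry1 and Cry2, beside 27.6% of all tested features, and 0 passed as higher, beside 1.98%.

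**Figure D1:**
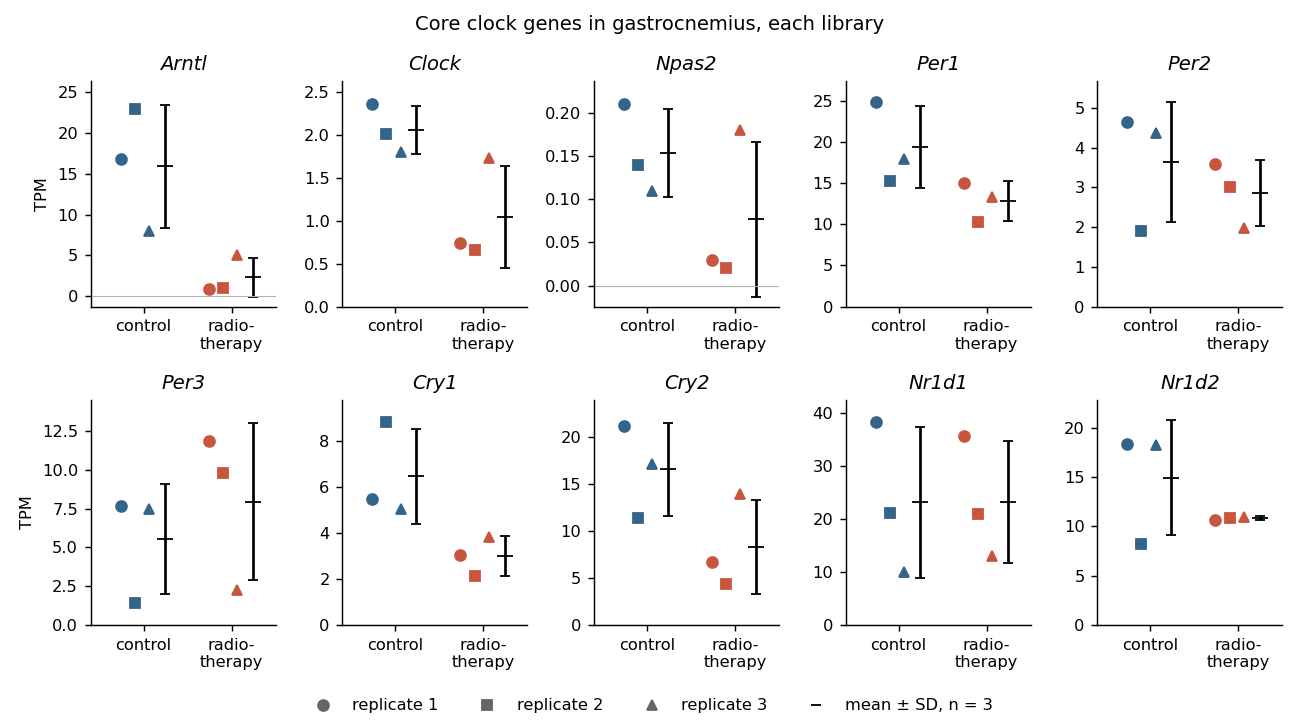
TPM (vertical axes, linear, 1 panel per gene) of the 10 core clock genes in 3 control (blue) and 3 radiotherapy (red) libraries, with symbols for the replicate number and black bars for the mean ± SD of each group. The 3 radiotherapy points of Arntl, at 0.86 to 5.04 TPM, lie below the control points, at 7.97 to 22.95 TPM, while the points of Nr1d1 overlap.

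**Figure D2:**
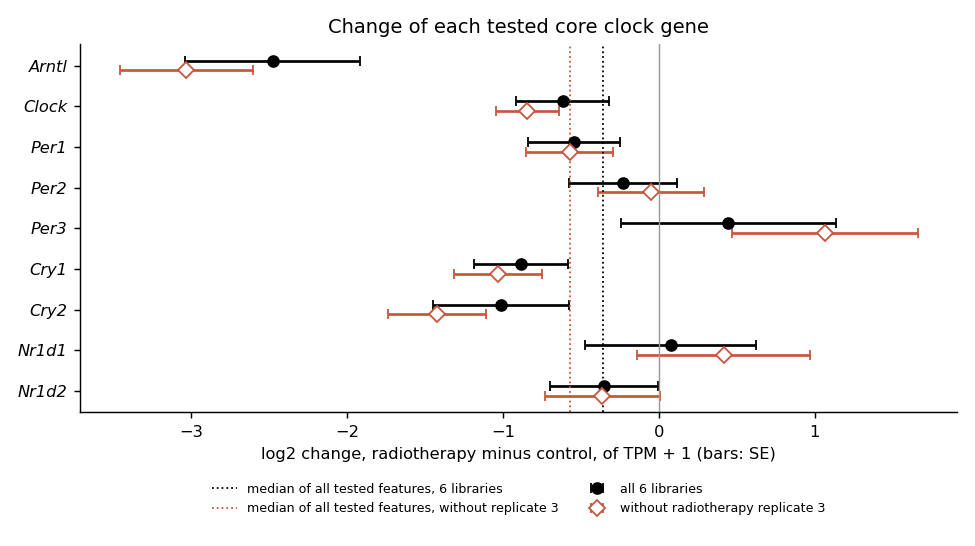
Log2 change of TPM + 1, radiotherapy minus control (horizontal axis), of the 9 tested core clock genes with SE bars, from all 6 libraries (black) and without radiotherapy replicate 3 (open red diamonds). Dotted lines mark the median change of all tested features in each fit, -0.36 and -0.57, and the value of Arntl, -2.48 and -3.03, lies to the left of both.

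Among the activators, Arntl and Clock were lower in each radiotherapy library than in every control library, without passing the test, and Npas2 was not. Arntl, which encodes BMAL1, the subunit that pairs with either CLOCK or NPAS2, was at 16.8, 22.95 and 7.97 TPM in control replicates 1 to 3 and at 0.86, 0.97 and 5.04 TPM in radiotherapy replicates 1 to 3. Every radiotherapy library was below every control library, with replicates 1 and 2 close together and replicate 3 between them and the control range. The log2 change was -2.48 (SE 0.56, limma adjusted p = 0.251), or -2.12 relative to the median of all features, and 46 of the 11938 tested features had a more negative one. Leaving out any single library kept the Arntl change between -3.03 and -2.17, and without radiotherapy replicate 3 it had a limma adjusted p of 0.0132.

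Clock, the usual partner of BMAL1, was at 2.36, 2.01 and 1.80 TPM in control muscle against 0.74, 0.66 and 1.73 TPM in radiotherapy replicates 1 to 3. The groups did not overlap, but radiotherapy replicate 3 lay just under the lowest control. Its log2 change was -0.61 (SE 0.30, limma adjusted p = 0.382), and -0.84 without radiotherapy replicate 3 (limma adjusted p = 0.0309). Npas2, the alternative partner, was at 0.21, 0.14 and 0.11 TPM in control muscle against 0.03, 0.02 and 0.18 TPM after radiotherapy. The low values of Npas2 kept it out of the test, and again replicates 1 and 2 were below every control library while replicate 3 was inside the control range.

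The Per genes, whose proteins form the repressor complex with CRY, differed from one another. Per1, the Per gene that also answers quickly to hormonal and light-related signals, was at 24.9, 15.2 and 17.9 TPM in control muscle against 15.0, 10.3 and 13.3 TPM after radiotherapy. The Per1 groups were separated by a narrow gap, between control replicate 2 and radiotherapy replicate 1. Its log2 change was -0.54 (SE 0.29, limma adjusted p = 0.408), and -0.14 after median-of-ratios scaling, under which the groups overlapped.

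Per2 was at 4.63, 1.90 and 4.37 TPM in control muscle against 3.59, 3.01 and 1.97 TPM after radiotherapy. Control replicate 2 held the lowest Per2 value of all libraries and the groups overlapped. The log2 change of Per2 was -0.23 (SE 0.35, limma adjusted p = 0.745) as deposited and turned to 0.12 after median-of-ratios scaling and 0.14 after quantile normalization.

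Per3, whose promoter holds the D-box pair shown above and which is the member with the most positive change, was at 7.70, 1.42 and 7.48 TPM in control muscle against 11.8, 9.80 and 2.26 TPM after radiotherapy. Radiotherapy replicates 1 and 2 were above every control library, and replicate 3 was near control replicate 2, the lowest. The log2 change of Per3 was 0.45 (SE 0.69, limma adjusted p = 0.749), or 0.81 relative to the median of all features. It turned to -0.16 without control replicate 2 and was 1.06 without radiotherapy replicate 3 (limma adjusted p = 0.208).

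Both Cry genes, which encode the light-independent repressors of the loop, had lower means after radiotherapy, and neither passed the test. Cry1, the stronger repressor of the pair, was at 5.50, 8.83 and 5.05 TPM in control muscle against 3.03, 2.14 and 3.84 TPM after radiotherapy. All 3 radiotherapy values were below the controls, and Cry1 was highest in control replicate 2, the library with the most Arntl. The log2 change was -0.89 (SE 0.30, limma adjusted p = 0.306), and -1.03 without radiotherapy replicate 3 (limma adjusted p = 0.0431).

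Cry2 was at 21.2, 11.4 and 17.2 TPM in control muscle against 6.66, 4.32 and 14.0 TPM after radiotherapy. Replicates 1 and 2 of the radiotherapy group were below every control library and replicate 3 was inside the control range. The Cry2 log2 change was -1.01 (SE 0.44, limma adjusted p = 0.349), and -1.42 without radiotherapy replicate 3 (limma adjusted p = 0.0267).

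The REV-ERB receptor genes showed no such separation. Nr1d1, which encodes REV-ERBα, was at 38.4, 21.2 and 10.1 TPM in control muscle against 35.8, 20.9 and 13 TPM after radiotherapy. Exons of Thra, a thyroid hormone receptor gene on the opposite strand, share 8.55% of the Nr1d1 exon bases in GENCODE M21, and as the labels do not state that strand was used in counting, reads from the overlap cannot be told apart. Thra was at 22.9 to 32.8 TPM in control muscle against 14.03 to 26.0 TPM after radiotherapy. Both Nr1d1 groups spanned nearly the same wide range, with means of 23.2 ± 14.3 and 23.3 ± 11.6 TPM (SD, n = 3 each). The log2 change of Nr1d1 was 0.08 (SE 0.55, limma adjusted p = 0.948), and it turned to -0.40 without control replicate 3 and -0.28 without radiotherapy replicate 1.

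Nr1d2, which encodes REV-ERBβ, was at 18.4, 8.26 and 18.2 TPM in control muscle against 10.6, 10.9 and 11 TPM after radiotherapy. Its radiotherapy values lay close together and inside the control range. The Nr1d2 log2 change was -0.35 (SE 0.35, limma adjusted p = 0.608), close to the median of all features, and it turned to 0.049 after median-of-ratios scaling and 0.029 after quantile normalization.

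The order of the members by level differed mainly in the place of Arntl. In control muscle the mean levels ran from Nr1d1 (23.2 TPM) through Per1 (19.4), Cry2 (16.6), Arntl (15.9), Nr1d2 (15.0), Cry1 (6.46), Per3 (5.53), Per2 (3.63) and Clock (2.06) to Npas2 (0.153 TPM). In radiotherapy muscle Nr1d1 and Per1 again led, at 23.3 and 12.85 TPM, and Arntl stood at rank 8 with 2.29 TPM, between Per2 and Clock. Neighbours in either order overlapped in their range over the 3 libraries, except that Npas2 lay below Clock in every library.

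Within each gene family the balance of the relatives overlapped between the groups. Cry2 made up 71.0% ± 12.8 of the summed Cry1 and Cry2 TPM in control muscle against 71.3% ± 6.21 in radiotherapy muscle (SD, n = 3 each). Per3 made up 20.7%, 7.65% and 25.1% of the 3 Per genes in control muscle against 38.9%, 42.5% and 12.9% in radiotherapy replicates 1 to 3. The Per3 share was thus above every control library in radiotherapy replicates 1 and 2 and between control values in replicate 3. Nr1d1 made up 35.6% to 71.9% of the Nr1d1 and Nr1d2 sum in control muscle against 54.2% to 77.1% in radiotherapy muscle, and Clock made up at least 90.6% of the Clock and Npas2 sum in every library.

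Ratios between 2 genes of the same library remove most of a library-wide scaling. The log2 ratio of Arntl to Nr1d1, the activator over the gene of its repressor, was -1.14, 0.11 and -0.30 in control muscle against -4.31, -3.48 and -1.21 in radiotherapy replicates 1 to 3. All 3 radiotherapy ratios were below the controls, although replicate 3 missed control replicate 1 by little. The difference of the group means was -2.55, and between -3.45 and -1.90 when any single library was left out. The ratio of Arntl to Per2 was 1.66, 3.05 and 0.74 in control muscle against -1.30, -1.03 and 1.02 in radiotherapy muscle. Replicates 1 and 2 were below every control library for Arntl to Per2, and replicate 3 lay inside the control range. The ratio of Cry1 to Per2 followed the same split, at 0.21, 1.76 and 0.17 in control muscle against -0.19, -0.35 and 0.70 in radiotherapy muscle, and that of Nr1d1 to Nr1d2 overlapped, at -0.80 to 1.26 and 0.22 to 1.66.

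**Figure D3:**
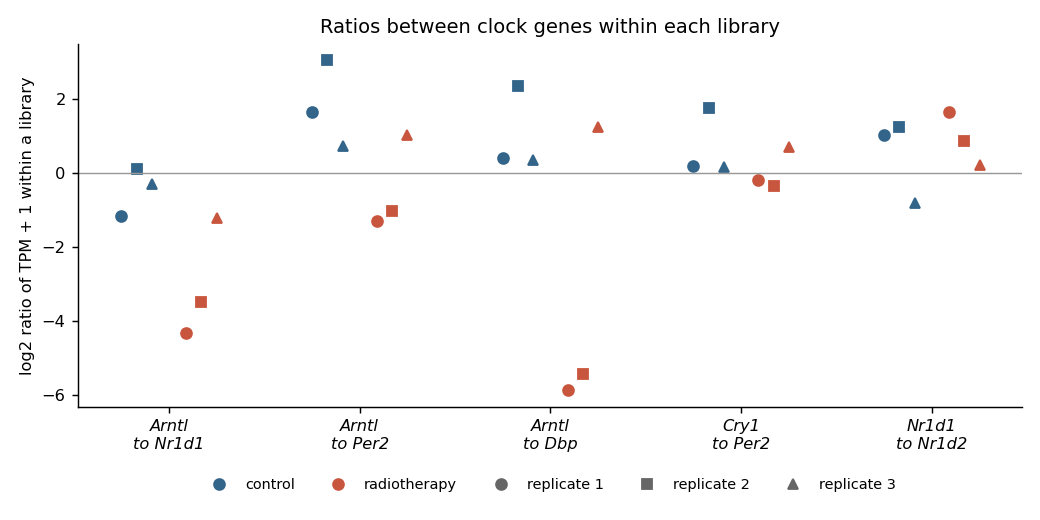
Log2 ratio of TPM + 1 between 2 clock genes in the same library (vertical axis) for 5 pairs of genes, control in blue and radiotherapy in red, with symbols for the replicate number. For Arntl to Dbp radiotherapy replicates 1 and 2 lie at -5.86 and -5.41 and replicate 3, at 1.25, among the controls, at 0.36 to 2.35.

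The position of radiotherapy replicates 1 and 2 against the controls was counted over all members. Radiotherapy replicates 1 and 2 were both below every control library for 6 of the 10 members (Arntl, Clock, Npas2, Per1, Cry1 and Cry2) and both above for 1 (Per3), beside 58.8% of all tested features below and 6.17% above, so that the share of members below was near that of all features. Radiotherapy replicate 3 was inside the control range for 6 of 10, a count given here without the share over all features. Npas2, which was not tested, is included in this count and among the members below. The median absolute log2 difference over the 9 tested members was 0.25 between radiotherapy replicates 1 and 2 and 0.65 between either of them and replicate 3. In control it was 0.26 between replicates 1 and 3 and 0.83 and 0.89 between these and replicate 2.

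Among the partner genes around the loop, Dbp and Nfil3 differed widely between libraries of the radiotherapy group. Dbp, an activator at D-boxes and a direct target of the BMAL1 complex, was at 12.3, 3.71 and 6.00 TPM in control muscle against 107.0, 82.9 and 1.54 TPM in radiotherapy replicates 1 to 3. Replicates 1 and 2, in which Arntl was lowest, were far above the controls and replicate 3 was below them. The log2 change of Dbp was 1.90 (SE 1.37, limma adjusted p = 0.508) and, without radiotherapy replicate 3, 3.65 (limma adjusted p = 0.0120). Nfil3, which represses at D-boxes, had the opposite split, at 69.5, 74.3 and 49.1 TPM in control muscle against 9.38, 9.39 and 80.0 TPM after radiotherapy. Its log2 change was -1.64 (limma adjusted p = 0.381), and -2.63 without radiotherapy replicate 3 (limma adjusted p = 0.0103).

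Ciart, which encodes a repressor of the BMAL1 complex, was at 5.71, 1.62 and 2.66 TPM in control muscle against 11.4, 7.49 and 1.37 TPM after radiotherapy, with radiotherapy replicates 1 and 2 above every control library, as for Dbp and Per3. Bhlhe41, an E-box repressor, was at 0.84 to 1.42 TPM in control muscle against 2.26, 1.83 and 0.41 TPM after radiotherapy, whereas its relative Bhlhe40 was at 21.9 to 46.1 and 20.3 to 48.3 TPM. Tef ran from 33.6 to 73.4 TPM in control muscle against from 31.2 to 43.3 TPM after radiotherapy, and Hlf, too low to be tested, from 0.55 to 0.84 and from 0.14 to 0.99 TPM. Rora, an activator at ROREs, was at 25.2 to 49.3 TPM in control muscle and 22.6 to 26.5 TPM after radiotherapy. Timeless, a relative of a fly clock gene, was at 4.21 to 10.2 and 2.10 to 5.15 TPM. Of the 11 partners 8 were tested, and 0 passed limma's test, beside 0.0586% of all tested features. Of the 8, 0 had an unadjusted p under 0.05 in limma's test, beside 13.3% as lower and 1.18% as higher. The groups were separated for 0, beside 19.3% as lower and 1.73% as higher. Without radiotherapy replicate 3, Dbp passed as higher, beside 1.98% of all tested features, and Nfil3 as lower, beside 27.6%.

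**Figure D4:**
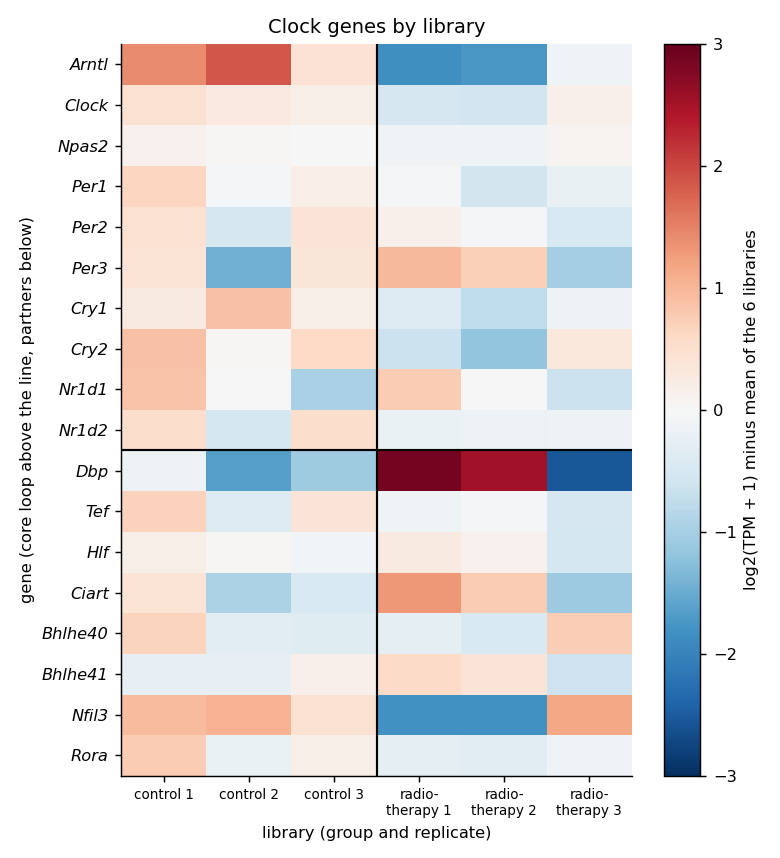
Log2(TPM + 1) minus its mean over the 6 libraries (colour, red above and blue below) for the 10 core genes and 8 partners (rows) in each library (columns). In radiotherapy replicates 1 and 2 Arntl and Nfil3 are blue and Dbp, Ciart and Per3 red, while replicate 3 has Nfil3 red and Dbp blue.

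Most enzymes that modify clock proteins had a log2 change below 0, as did most features. Of 18 tested it was 17, beside 78.5% of all tested features, 0 passed limma's test, 5 had an unadjusted p under 0.05 as lower and 0 as higher, and the groups did not overlap for 6 as lower and 1 as higher. Over all tested features these shares were 13.3% and 1.18% for the unadjusted p and 19.3% and 1.73% for groups that did not overlap. The median was -0.70. Csnk1e, casein kinase 1 epsilon, which phosphorylates PER proteins, was at 34.6, 23.1 and 19.2 TPM in control muscle against 9.55, 6.86 and 17.4 TPM after radiotherapy. Fbxw11, a ubiquitin ligase subunit that acts on PER, was at 7.30 to 12.2 and 3.91 to 5.57 TPM. Prkaa2, the AMPK subunit that is the main one in muscle, was at 17.4 to 32.8 and 5.04 to 15.9 TPM, and Gsk3b, a kinase of several clock proteins, at 4.01 to 6.12 and 1.97 to 3.28 TPM. Fbxw7, a ubiquitin ligase subunit for REV-ERBα and the 1 separated as higher, was at 2.28 to 3.50 and 3.70 to 5.15 TPM.

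Cofactors of the loop were all below 0 in log2 change, 14 of 14 tested, beside 78.5% of all tested features, with a median of -0.74. By limma 0 passed, 4 had an unadjusted p under 0.05 as lower (13.3% of all tested features), and 6 had groups that did not overlap, all as lower (19.3%). Ncor1, the corepressor that REV-ERB receptors recruit, was at 20.9 to 30.3 TPM in control muscle against 10.9 to 14.9 TPM after radiotherapy. Ep300 and Kat2b, histone acetyltransferases, were at 2.64 to 5.73 and 0.95 to 2.03 TPM and at 17.4 to 28.1 and 7.86 to 12.7 TPM. Cul4a, a ubiquitin ligase scaffold, was at 28.9 to 36.1 and 12.6 to 22.96 TPM. The medians of these lists are to be read beside the -0.36 of all features, which median-of-ratios scaling moved to -0.02.

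Genes through which signals reach the clock, and genes it times in muscle, were each summarised as a list. Of 12 input genes tested all had a log2 change below 0 (78.5% of all tested features), 0 passed limma's test, 3 had an unadjusted p under 0.05 as lower (13.3%) and 3 were lower in every radiotherapy library than in every control library (19.3%). Klf9, a glucocorticoid-induced factor that is itself rhythmic, was at 20.7 to 33.9 and 13.01 to 15.1 TPM, and Crem, a factor of cyclic AMP signalling, at 8.10 to 11.2 and 4.67 to 7.56 TPM. Fkbp5, a glucocorticoid target, was at 97.0, 82.3 and 85.2 TPM in control muscle against 10.5, 19.0 and 81.9 TPM in radiotherapy replicates 1 to 3. Sik1, a kinase that tempers light input in the brain clock, was at 21.8, 21.4 and 13.3 TPM and at 1.85, 1.89 and 20.2 TPM, so that both genes were low in replicates 1 and 2 and near control levels in replicate 3.

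Of 13 tested output genes, with a median log2 change of -0.39, 0 passed limma's test, beside 0.0586% of all tested features. For 1 gene limma's unadjusted p was under 0.05 as lower, beside 13.3%, and each radiotherapy library lay below every control library, beside 19.3%. That gene was Myod1, a myogenic factor and BMAL1 target, at 17.5, 67.2 and 16.2 TPM in control muscle against 4.31, 2.03 and 0.71 TPM after radiotherapy, with a log2 change of -3.21 (SE 0.64, limma adjusted p = 0.238). Unlike Arntl, Myod1 was lowest in radiotherapy replicate 3. Nampt, which makes the precursor of NAD, was at 19.2 to 38.5 and 12.4 to 24.1 TPM. Slc2a4, the insulin-regulated glucose transporter, was at 179.0 to 409.6 and 118.3 to 226.2 TPM, and Tbc1d1, a regulator of its traffic, at 20.4 to 31.9 and 5.57 to 20.6 TPM.

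Likeness over the 6 libraries was measured by Pearson's r of log2(TPM + 1) among 65 tested genes of these lists, as a description of libraries that also share a general shift. The genes most like Arntl were Csnk2a1 (r = 0.97), Cul4a (r = 0.96) and Hsf1 (r = 0.95). Those most like Nr1d1 were Ciart (r = 0.70), Usp2 (r = 0.59) and Dbp (r = 0.58).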

How the data were processed

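Per the labels' protocols, TruSeq libraries were prepared from total RNA, and 3 control and 3 radiotherapy libraries of gastrocnemius are listed. The table deposited by the authors holds TPM, scaled by them for length and library total, and each library sums to 1000000. HISAT2, StringTie and RSEM and the build mm9 are named in the submitters' processing notes with no version or role. Which annotation release was used is not stated. Without read counts the depth is unknown, and no detection limit is given.

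The 11938 features averaging 1 TPM or more were tested as log2(TPM + 1), radiotherapy minus control, with limma 3.58.1 in R 4.3.3 (empirical Bayes with a trend, no covariates, two-sided). Benjamini-Hochberg adjustment ran over every tested feature, with a threshold of 0.05 on the adjusted p. On simulated libraries given the observed means and spread, the fit recovered most but not all of the large changes put in, with a share of false calls somewhat above the threshold. The simulated noise was independent between features, unlike the difference of radiotherapy replicate 3 across many features, so these shares need not hold for the real libraries. All changes put in were large and in features above the level of Clock. Recovery of smaller changes, such as those of most members, or of genes as low as Clock was not measured. The members, the 5 lists of other clock genes and the marker lists were chosen with earlier results of these data known. Named list genes were the 4 with the smallest unadjusted p, with Dbp, Tef, Hlf, Nfil3, Bhlhe40, Bhlhe41, Rora and Ciart always named, and Fbxw7 was added after its values were seen. Alternatives were other pseudocounts, filters, scalings and model settings, a fit blocked on the replicate number, and fits lacking 1 library each. Of the listed genes, 2 are not reported here and are left out of their lists. Promoter windows are from RefSeq (GRCm38.p6). Figures were drawn with matplotlib 3.10.9.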

Additional observations from a re-analysis of the deposited data

How the results depend on the processing

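Of 141 alternative values of single members' changes, 130 kept direction and side of the threshold, 4 passed it (Arntl, Clock, Cry1 and Cry2, all without radiotherapy replicate 3) and 7 turned direction. These were Per2 (0.12 and 0.14) and Nr1d2 (0.049 and 0.029) with median-of-ratios scaling and quantile normalization, Per3 without control replicate 2 (-0.16, in a range of -0.16 to 1.06 without single libraries), and Nr1d1 without control replicate 3 (-0.40) or radiotherapy replicate 1 (-0.28), in a range of -0.40 to 0.52. Leaving out 1 library at a time, the members past the threshold numbered 0 to 4, beside 1 to 3534 of the 11938 tested features. Members separated between groups numbered 4 to 7 (7 without control replicate 2), beside 2469 to 7020 features as lower and 278 to 736 as higher. The members' median change was -0.67 to -0.36, and the log2 ratio of Arntl to Nr1d1 differed by -3.45 to -1.90. Separated members numbered 2 with a mean of at least 5 TPM, where fewer members are tested, beside 1400 of 6918 features as lower. With quantile normalization 1 (Arntl) was separated, as lower, beside 11% of all tested features. The members' median was -0.14 with median-of-ratios scaling.

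Over all features 7 passed, and 34 with no filter on low values, 4 with median-of-ratios scaling, 4 with quantile normalization and 1 to 3534 without single libraries, 3534 being without radiotherapy replicate 3. The cause was not tested. Correlations of deviations from group means, -0.05, -0.11 and -0.20 for replicate numbers 1, 2 and 3, gave no sign that the numbers pair the libraries. They cannot decide it, because radiotherapy replicate 3 stood apart from replicates 1 and 2. With the replicate number as a block 4 features and 0 members passed. Depth is unknown, so the precision of low genes such as Npas2 and Clock rests on the spread of 3 libraries.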

Other observations

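Control replicate 2 and radiotherapy replicate 3 shared low levels of one set of clock genes, a pattern noticed after the values were seen. They were the lowest 2 of the 6 libraries for Per2 and Per3 among the 9 tested members and for Dbp, Ciart, Tef and Bhlhe41 among the 8 tested partners, beside 6.69% of all tested features. Dbp was at 3.71 TPM in control replicate 2 and 1.54 TPM in radiotherapy replicate 3, against at least 6.00 TPM in the others. The same 2 libraries had the least of Myh7, the slow myosin, at 8.61 and 32.6 TPM against 177.0 to 362.5 TPM in the other 4. This was not particular to slow fibres. They also had the least of the fast myosins Myh1 (169 and 196 against 351 to 453 TPM) and Myh2 (47.3 and 51.9 against 111.8 to 199.9 TPM). The same held for the Schwann cell marker Mbp and the adipocyte marker Adipoq, but not for Myh4 or Ckm. The part of fibre types and other cells in these clock values was not tested.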
